A study of Mus musculus with 24 samples.

Results

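The replication-dependent histone genes of mouse blood monocytes were examined as the 69 genes, of 53715 listed, whose symbol begins with Hist1h, Hist2h, Hist3h or Hist4h. They encode the linker histone H1 (6 genes) and the core histones H2A (19 genes), H2B (19 genes), H3 (12 genes) and H4 (13 genes). On GRCm38, 55 of them lie at chr13:21715763-23934851, 10 at chr3:96219865-96270132, 3 at chr11:58948920-58956830 and 1, Hist4h4, at chr6:136801553-136804415. The 24 libraries were made from total RNA of monocytes sorted from peripheral blood of C57BL/6 mice aged 8 to 10 weeks, which all carried a Cx3cr1 GFP reporter that served in the sort. Mice labelled N2ΔMy had Notch2 deleted by a Cre recombinase expressed from the Lyz2 locus, which is active in myeloid cells, and wt mice were their littermates. Aldara, a cream with 5% imiquimod (IMQ), an agonist of the RNA sensor TLR7, was given at 50 mg per mouse and day, and cells were sorted on day 5. The labels give the controls as Sham mice, on which Vaseline was applied, whereas the methods for the RNA libraries call them untreated, so whether the Sham libraries carry an effect of cream and handling is uncertain. The 6 groups of 4 libraries were Ly6Chi (classical) monocytes of wt and of N2ΔMy mice after Sham, Ly6Chi monocytes of both genotypes after IMQ, and cells of the Ly6Clo gate, where patrolling monocytes of wt blood are found, of both genotypes after IMQ. There were no Ly6Clo libraries from Sham mice among those analysed, so the subsets were compared under IMQ.

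Replication-dependent histone genes supply the protein that packages newly made DNA, and in dividing cells their transcripts rise at the start of S phase and are destroyed when DNA synthesis stops. Most of these transcripts have no poly(A) tail and end just behind a short stem-loop, which is bound by SLBP and sets processing and half-life. Some members also make spliced or polyadenylated transcripts in cells that have left the cycle, and H1 subtypes differ in how far their expression depends on replication. Classical monocytes leave the bone marrow soon after their precursors divide and mature in blood into Ly6Clo cells.

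The libraries were read to a depth, inferred from the steps between the rounded values, of 9520037 to 19759572 reads per library. Notch2 lay between 12656 and 20005 in the 12 wt libraries and between 7240 and 11518 in the 12 N2ΔMy libraries, so its transcript was lowered and not lost, and it did not overlap between the genotypes. The Ly6Chi marker Ly6c2 averaged 4400 or more in the 4 Ly6Chi groups and 134.2 or less in the Ly6Clo groups, and the Ly6Clo marker Treml4 the reverse, at 255.2 or less against 919.5 or more. The cells of the Ly6Clo gate differed between genotypes: the Ly6Chi markers Ccr2 and Vcan averaged 588.8 ± 314.6 and 103.5 ± 38.6 in wt and 5708.0 ± 896.8 and 1424.0 ± 525.3 in N2ΔMy, and both were called higher in N2ΔMy and for the genotype by subset interaction (log2 2.94, SE 0.39, and 3.36, SE 0.40). The 8 T cell markers summed to 0 to 33 per library, Cd4 reaching 28 in one Ly6Clo library, and Cd3e, Cd3g, Cd28 and Trac were at 0 in all. The 6 NK cell markers summed to 0 to 70. The 12 neutrophil and precursor markers summed to 38 to 156 in Ly6Chi Sham libraries, 1163 to 5431 in Ly6Chi IMQ libraries and 20 to 298 in Ly6Clo libraries, and 3 of the 4 tested (S100a8, S100a9, Prtn3) rose with IMQ and fell in Ly6Clo against Ly6Chi cells in both genotypes. The 7 erythroid markers summed to 753 to 1547 in the 4 IMQ libraries numbered replicate 4, to at most 92 in the other 12 IMQ libraries and to 0 to 372 in the Sham libraries. Of genes typical of B cells 2 were tested. Ighm, for the IgM heavy chain, lay between 1966 and 3756 in Ly6Chi Sham, 1162 and 2629 in Ly6Chi IMQ and 719 and 1955 in Ly6Clo libraries, with log2 differences between IMQ and Sham of -0.62 (SE 0.23) in wt and -0.71 (SE 0.28) in N2ΔMy. Ighm was not called in limma's fit of the 8 libraries of each genotype, but was called lower in both once replicate numbers entered as a block, and in the first library series (described next) on its own. Cd79b was not called in these fits. The 6 stem and progenitor markers summed to 552 to 978, 282 to 513 and 98 to 1040 in the same order, with Flt3, also a dendritic cell marker, lower with IMQ in both genotypes. The 6 dendritic cell markers summed to 531 to 1015 in Ly6Chi Sham, 270 to 491 in Ly6Chi IMQ and 86 to 1519 in Ly6Clo libraries. Whether these markers had a part in the histone results was not tested. The library numbers in the labels form 2 runs, called library series here: replicates 1 and 2 of each group are in the first and replicates 3 and 4 in the second. In all 6 groups both Ighm values of the second series lay above both of the first.

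Most members carry the histone stem-loop in their annotated 3′ end, and the forms seen among the transcripts that the results turn on are shown, because it is the element that ties these genes together. A stem arm GGNNCT, the loop TTTN and the closing arm AGNNCC, searched as one run on the sense strand behind the stop codon, were found in 44 of the 52 members whose model has at least 16 bases there (84.6%) and in 17 of 20929 other coding genes (0.0812%). The stem-loop is in capitals, with 5 bases on each side, read 5′ to 3′ from annotated transcripts of GRCm38.
Hist1h1c: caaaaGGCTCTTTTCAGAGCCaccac
Hist1h1e: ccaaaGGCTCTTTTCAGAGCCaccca
Hist1h1d: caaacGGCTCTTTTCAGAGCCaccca
Hist2h2ac: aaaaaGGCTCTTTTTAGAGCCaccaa
Hist1h2bb: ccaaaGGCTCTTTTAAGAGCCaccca
Hist1h3e: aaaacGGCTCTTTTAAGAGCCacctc
Hist1h4h: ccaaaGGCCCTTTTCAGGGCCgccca
Hist1h4c: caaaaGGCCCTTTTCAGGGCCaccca
Hist1h4j: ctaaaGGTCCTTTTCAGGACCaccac
The H1, H2A, H2B and H3 members shown share a stem that opens with GGCTC, the H4 members Hist1h4h and Hist1h4c one that opens with GGCCC, and Hist1h4j one that opens with GGTCC. No match was found in Hist1h2bc, the spliced H2B gene described below, or in Hist2h2be, and the annotated model of Hist1h1b ends at its stop codon, so that no tail was searched. Gene models differ in how far they run past the element: that of Hist1h4h ends 46 bases and that of Hist2h2ac 57 bases behind it, whereas the models of Hist1h1c, Hist1h1e and Hist1h1d go on for 840, 1153 and 4884 bases and count reads from that stretch too.

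The 250 bases before the annotated start are shown for Hist1h1b and Hist1h1c, the tested H1 genes with the lowest and the highest log2 difference between wt Ly6Clo and Ly6Chi cells (RefSeq, GRCm38.p6, gene strand, 5′ to 3′). Capitals mark the CCAAT letters, the TATA box TATAAA and the H1 box AAACACA, each searched on both strands.
Hist1h1b, chr13:21780626-21780875, minus strand: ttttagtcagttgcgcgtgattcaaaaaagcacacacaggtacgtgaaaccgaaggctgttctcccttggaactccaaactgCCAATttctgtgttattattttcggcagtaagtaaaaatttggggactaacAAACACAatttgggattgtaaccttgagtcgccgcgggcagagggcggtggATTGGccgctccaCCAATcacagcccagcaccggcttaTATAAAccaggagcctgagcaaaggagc
Hist1h1c, chr13:23738557-23738806, plus strand: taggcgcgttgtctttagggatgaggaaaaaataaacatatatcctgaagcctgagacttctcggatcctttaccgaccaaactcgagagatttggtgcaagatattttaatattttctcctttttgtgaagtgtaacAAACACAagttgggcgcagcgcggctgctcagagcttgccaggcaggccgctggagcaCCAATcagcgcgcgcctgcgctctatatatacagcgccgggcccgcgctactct
Both windows hold 1 H1 box, and Hist1h1b holds 3 CCAAT letters and 1 TATAAA where Hist1h1c holds 1 and 0. Among the 59 members with a RefSeq promoter window, which adds the 50 bases after the start, CCAAT was found in 50 (84.7%, against 37.4% of 32851 windows of all genes), TATAAA in 34 (57.6% against 13.6%) and the H1 box in 9 (15.3% against 7.18%). The H1 box was held by 5 of 6 H1 members and by 0 of 10 H3 and 0 of 12 H4 members, and CCAAT by 15 of 15 H2A, 16 of 16 H2B, 10 of 10 H3 and 3 of 12 H4 members. These matches describe letters in the windows and not bound sites.

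The minimum for testing, a value of 50 in any 1 library, was reached by 42 members: 5 of H1, 9 of H2A, 10 of H2B, 6 of H3 and 12 of H4. Another 20 were above 0 but below this minimum, the highest being Hist1h2af at 43, Hist1h3i at 39 and Hist1h2bm at 36, and 7 were at 0 in every library (Hist1h2ba, Hist2h2aa2, Hist1h2bq, Hist1h2br, Hist1h2ap, Hist2h3c1 and Hist1h2ao). The testis-type genes Hist1h1t, Hist1h2aa and Hist1h2ba reached 7, 2 and 0. Coding sequences of the family are nearly alike, and a read of 75 bases can fall into several genes. The median share of 75-base windows that a transcript had in common with another gene was 34.45% over the tested members, 69.05% over those above 0 but untested and 93.1% over those at 0, so a low value of the latter does not show absence of the transcript. For the 14 tested members with a share of 50% or more the assignment of reads is uncertain.

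Per kilobase of gene model, the highest levels over the 24 libraries were those of the linker histone genes Hist1h1c (2623.3 normalised counts per kb, for H1.2) and Hist1h1e (1756.0 per kb, for H1.4), followed by Hist2h2ac (1083.9 per kb, an H2A gene) and Hist1h4d (541.9 per kb, an H4 gene). Hist1h1d (H1.3) had 195.1 per kb over a model of 7425 bases, most of which lies outside the coding part, and Hist1h1b (H1.5) had 276.2 per kb. In core histones the most counted members of their classes were Hist2h2ac, Hist1h2be, Hist1h3e and Hist1h4d. The counts of the 63 core histone genes, added up in each library, were 3205, 4095, 2442 and 2988 in wt Ly6Chi Sham (3182.5 ± 687.8, mean ± SD, n = 4 libraries in this and every group below) and 4985, 4412, 4476 and 5400 in wt Ly6Chi IMQ (4818.2 ± 464.9). In wt Ly6Clo IMQ the sums were 3358, 2897, 2386 and 3221 (2965.5 ± 432.0). Every wt Ly6Chi IMQ library thus lay above every wt Ly6Chi Sham and every wt Ly6Clo library.

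In N2ΔMy mice the core sums were 3180, 4500, 2859 and 4844 in Ly6Chi Sham (3845.8 ± 973.2), 4124, 4586, 5054 and 6411 in Ly6Chi IMQ (5043.8 ± 987.4) and 3167, 3128, 2576 and 3408 in Ly6Clo IMQ (3069.8 ± 351.7). Here Sham and IMQ libraries overlapped, although the IMQ library was higher in 4 of 4 same-numbered pairs (ratios of 1.019 to 1.768), and Ly6Chi and Ly6Clo IMQ libraries did not overlap. The ratio of mean core sums between IMQ and Sham was 1.514 in wt (1.287 in the first and 1.819 in the second library series) and 1.312 in N2ΔMy (1.134 and 1.488). The ratio between Ly6Clo and Ly6Chi was 0.6155 in wt (0.6656 and 0.5677) and 0.6086 in N2ΔMy (0.7227 and 0.5219). The summed H1 counts overlapped between the groups of each of these comparisons. Within same-numbered pairs, however, they were lower in Ly6Clo than in Ly6Chi cells in 4 of 4 pairs of each genotype, by ratios of 0.6407 to 0.9027 in wt and 0.6306 to 0.8296 in N2ΔMy, and the ratio of means was 0.8778 and 0.6817 in the library series of wt and 0.8156 and 0.6326 in those of N2ΔMy. Their IMQ to Sham ratio lay on different sides of 1 in the library series, at 0.8094 and 1.234 in wt and at 0.63 and 1.197 in N2ΔMy. In bulk libraries of sorted cells, fewer cells that express a gene and less RNA per cell cannot be told apart.

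**Figure D1:**
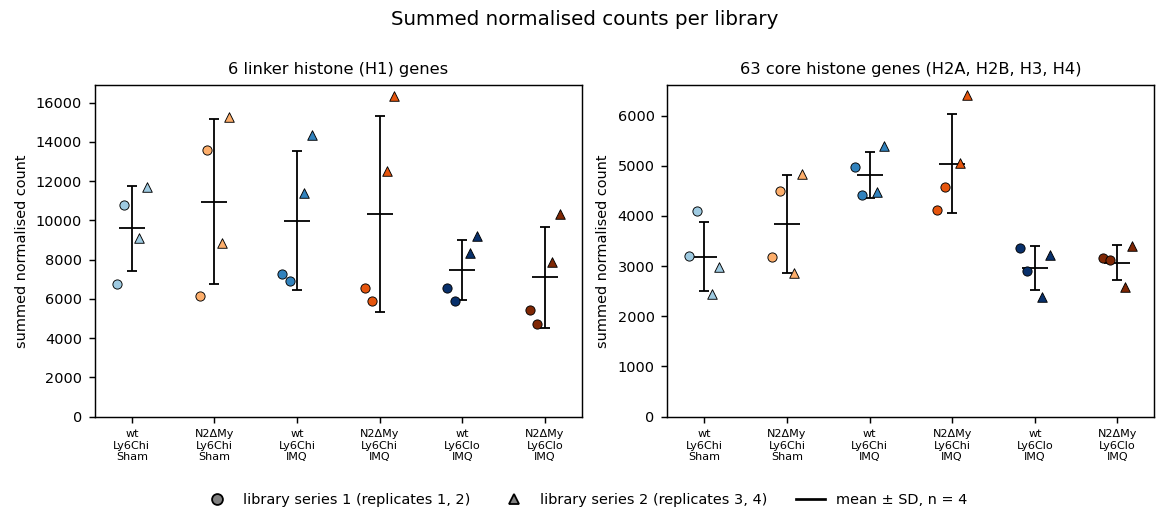
Summed normalised counts (y axis) of the 6 H1 genes and of the 63 core histone genes in each library, by group (x axis), with circles for the first and triangles for the second library series and bars for mean ± SD of 4 libraries. Core sums of Ly6Chi IMQ libraries (4124 to 6411) lie above those of Ly6Clo IMQ libraries (2386 to 3408) in both genotypes, while the ranges of H1 sums overlap.

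The first comparison asked what IMQ did to these genes in Ly6Chi monocytes. In wt cells 4 members rose, 2 of H2B (Hist1h2bc, Hist1h2bb) and 2 of H4 (Hist1h4c, Hist1h4h), and none fell, among 42 tested, where 4.43% of all 11230 genes tested were called higher and 9.49% changed (limma, Benjamini-Hochberg adjusted p of at most 0.05 over all genes and a log2 fold change of at least 0.6 in size). In N2ΔMy cells 2 H4 members rose (Hist1h4j, Hist1h4h) and none fell, against 4.15% called higher and 8.7% changed. Most members leaned the same way without passing: the log2 fold change was above 0 for 39 of 42 in wt and 32 of 42 in N2ΔMy, with medians of 0.77 and 0.45 where the median of all genes was 0.01. These counts favour a rise, because 6 members (Hist1h4f, Hist1h4i, Hist1h4j, Hist1h4n, Hist1h2bh and Hist1h3b) reached the minimum for testing in Ly6Chi IMQ libraries only. Without them it was above 0 for 33 of 36 in wt and 26 of 36 in N2ΔMy, with medians of 0.71 and 0.39, and 4 and 1 were called. The 2 comparisons share no library. With 1 replicate left out in turn, 1 to 3 members were called in wt (2, 1 and 1 without replicate 1, 3 or 4), where 6.06% to 8.98% of all genes changed, and 0 in N2ΔMy whichever replicate was left out, where 5.44% to 7.5% did.

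Libraries with the same replicate number deviated together, and once that number was entered as a block 18 members rose in wt (5.82% of all genes higher, 11.9% changed) and 6 in N2ΔMy (4.76% and 9.89%), none falling. With the library series as a covariate in its place 15 rose in wt (5.83% of all genes) and 8 in N2ΔMy (5.16%). Below, without the block means limma's fit of all 8 libraries with the group as its only term. With the block, by class, these were 1 of H1, 4 of H2A, 6 of H2B, 1 of H3 and 6 of H4 in wt, and 1 of H2B, 1 of H3 and 4 of H4 in N2ΔMy. The H3 member was Hist1h3b in both genotypes. All counts of this paragraph are over the 42 members, including the 6 that reached the minimum in Ly6Chi IMQ libraries only, which favours a rise. In fits of the first library series alone 2 members rose in wt (3.62% of all genes) and 1 in N2ΔMy (2.83%), and in fits of the second 3 (2.42%) and 2 (3.93%). Among tested members 7 had every wt IMQ library above every wt Sham library, where 9.93% of all genes did, and 4 had so in N2ΔMy, where 9.87% did. Those in N2ΔMy include Hist1h4f and Hist1h4j, which reached the minimum in Ly6Chi IMQ libraries only.

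Hist1h2bc encodes an H2B and is one of the members known to make polyadenylated transcripts in differentiated cells (GENCODE identifier ENSMUSG00000018102.5, chr13:23684199-23692908, plus strand). Its normalised counts were 114, 107, 94 and 100 in wt Sham and 204, 181, 219 and 392 in wt IMQ. All wt IMQ libraries were above all wt Sham libraries, by 1.19 on the log2 scale (SE 0.23, limma adjusted p = 0.006158), with 0.79 in the first and 1.59 in the second library series. In N2ΔMy the counts were 76, 152, 87 and 174 after Sham and 157, 237, 274 and 427 after IMQ, which overlapped. The N2ΔMy difference was 1.15 on the log2 scale (SE 0.34) at a limma adjusted p of 0.05221, and 0.003369 with the block. Of the other polyadenylated-type members, Hist1h1c and Hist2h2be were not called with or without the block, and Hist4h4 was called in wt with the block and not without it (0.92, SE 0.29, limma adjusted p = 0.03625).

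Hist1h2bb, another H2B gene, had 53, 50, 30 and 44 counts in wt Sham and 96, 81, 88 and 92 in wt IMQ, without overlap. It rose by 1.02 on the log2 scale (SE 0.24, limma adjusted p = 0.01503). In N2ΔMy it had 41, 61, 43 and 100 after Sham and 53, 98, 86 and 98 after IMQ, a difference of 0.50 (SE 0.33) that did not pass. The most counted H2B member, Hist1h2be, had 265, 480, 147 and 133 in wt Sham and 454, 354, 185 and 241 in wt IMQ, and the spread between library series in each group was wider than the difference between treatments.

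The H4 genes Hist1h4h and Hist1h4c code for the same type of protein from separate places in the chromosome 13 cluster. Hist1h4h had 106, 133, 82 and 80 counts in wt Sham and 158, 158, 140 and 184 in wt IMQ, and 83, 116, 81 and 142 in N2ΔMy Sham and 142, 162, 224 and 208 in N2ΔMy IMQ. The wt groups did not overlap, and the N2ΔMy groups met at 142. It rose by 0.69 in wt (SE 0.20, limma adjusted p = 0.04176) and by 0.81 in N2ΔMy (SE 0.23, limma adjusted p = 0.04619) on the log2 scale.

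Hist1h4c had 135, 158, 107 and 103 counts in wt Sham against 192, 215, 250 and 278 in wt IMQ, a log2 difference of 0.90 (SE 0.19, limma adjusted p = 0.009366), without overlap. In N2ΔMy its values were 117, 153, 167 and 206 against 178, 157, 335 and 292, which overlapped and did not pass (0.53, SE 0.27). Hist1h4j, a weakly counted H4 gene, had 7, 10, 7 and 21 in N2ΔMy Sham and 27, 56, 24 and 30 in N2ΔMy IMQ. It rose by 1.58 (SE 0.44, limma adjusted p = 0.04015) in N2ΔMy, and it was tested because of the one N2ΔMy IMQ library at 56, which favours a rise in that group. In wt the values 21, 9, 24 and 19 after Sham and 47, 17, 21 and 29 after IMQ overlapped. The most counted H4 gene, Hist1h4d, had a log2 difference of 0.39 (SE 0.18) in wt and 0.25 (SE 0.16) in N2ΔMy, neither of which passed.

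Among H2A genes Hist2h2ac had 490, 548, 468 and 607 counts in wt Sham and 736, 618, 663 and 759 in wt IMQ. These did not overlap and had a limma adjusted p of 0.03942, but the log2 difference of 0.40 (SE 0.11) was under the size required. In N2ΔMy it was 0.37 (SE 0.18). Hist1h2ak, also of H2A, had 75, 90, 155 and 114 in wt Sham and 147, 117, 232 and 225 in wt IMQ and passed with the block and not without it (0.72, SE 0.18, limma adjusted p = 0.01316). Hist3h2a, which shares 33% of its model with Trim17 on the same strand, had the lowest value in both genotypes, at -0.64, and did not pass.

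The H3 genes were counted least. Hist1h3e had 115, 155, 121 and 136 in wt Sham and 167, 151, 140 and 160 in wt IMQ, with a difference of 0.23 (SE 0.16). Hist1h3b had the largest log2 value in both genotypes, 2.92 (SE 1.15) in wt and 2.87 (SE 0.90) in N2ΔMy, and passed with the block (limma adjusted p = 0.01472 and 0.02942) and in the first library series on its own, but not without the block. Its counts were 1, 3, 0 and 0 in wt Sham and 49, 65, 1 and 3 in wt IMQ, so that the high values came from the first library series and only one library, at 65, reached the minimum for testing.

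None of the H1 genes passed with IMQ in either genotype without the block. Hist1h1c had 3420, 5058, 3096 and 3781 counts in wt Sham and 3927, 3757, 4075 and 5078 in wt IMQ (log2 difference 0.15, SE 0.15). For Hist1h1e the difference was -0.19 (SE 0.47) in wt and -0.30 (SE 0.60) in N2ΔMy, and for Hist1h1d -0.02 (SE 0.22) and -0.25 (SE 0.30). For each of these 3 genes the sign differed between the library series, as for Hist1h1d in N2ΔMy with -0.72 in the first and 0.22 in the second. Hist1h1b had 123, 223, 159 and 271 in wt Sham and 193, 176, 308 and 481 in wt IMQ, which overlapped (0.52, SE 0.33).

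**Figure D2:**
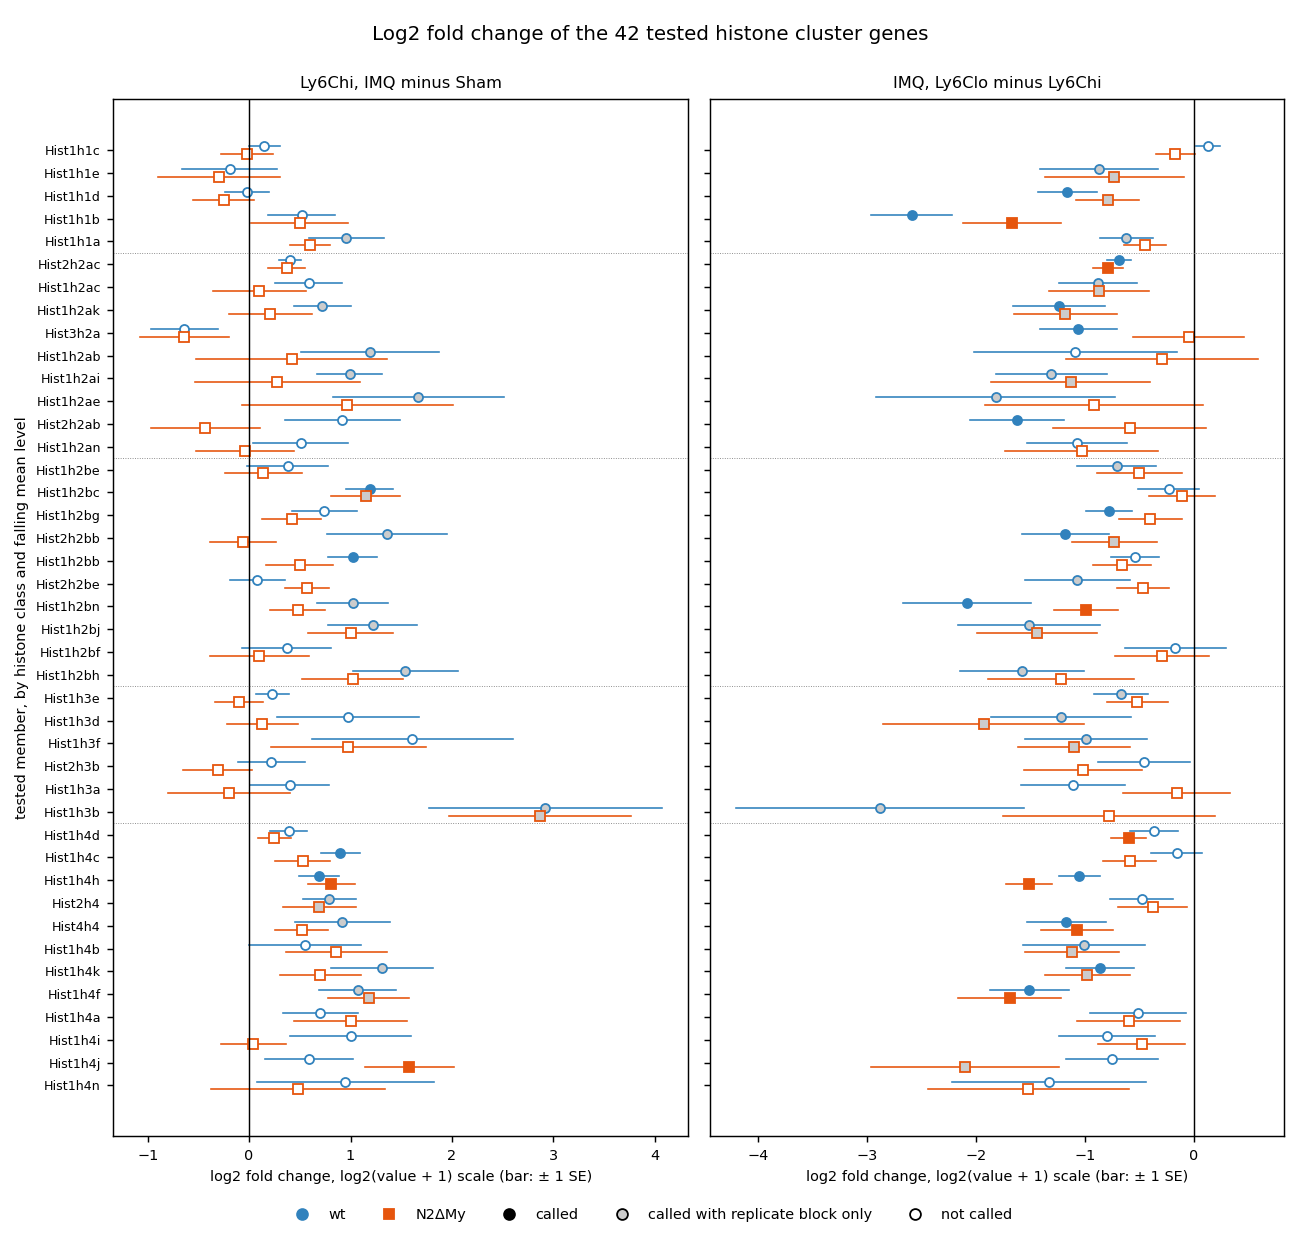
Log2 fold change on the log2(value + 1) scale (x axis, bars ± 1 SE) of the 42 tested members (y axis, by class) for IMQ minus Sham in Ly6Chi cells on the left and Ly6Clo minus Ly6Chi after IMQ on the right, with circles for wt and squares for N2ΔMy. Filled symbols passed limma's test, grey ones passed with the replicate block and not without it, and points lie right of 0 for 39 wt members on the left panel and left of 0 for 41 wt members on the right panel.

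The second comparison set Ly6Clo against Ly6Chi monocytes of IMQ-treated mice; it uses the same Ly6Chi IMQ libraries as the comparison with Sham, so the values of a member in both are not independent. In wt mice 13 members fell and none rose among 42 tested, where 12.7% of all genes tested were called lower and 24.6% changed. In N2ΔMy mice 7 fell and none rose, against 8.38% lower and 17.4% changed. The log2 difference was below 0 for 41 of 42 members in wt, the exception being Hist1h1c, and for 42 of 42 in N2ΔMy, with medians of -1.03 and -0.78 where the median of all genes was -0.01. Without the 6 members that reached the minimum in Ly6Chi IMQ libraries only, for which the minimum favours a fall, it was below 0 for 35 of 36 and 36 of 36, with medians of -1.0 and -0.73, and 12 and 6 were called. Over all 42 members, with the replicate block 27 fell in wt (15.0% lower, 28.5% changed) and 19 in N2ΔMy (10.2% lower, 20.5% changed), and with the library series as a covariate 27 (14.5% lower) and 20 (10.5% lower). With 1 replicate left out, 7 to 11 were called in wt (7 and 8 without replicate 2 or 3), where 20.8% to 23.0% of all genes changed, and 3 to 6 in N2ΔMy (3 and 4 without replicate 2 or 3), where 12.6% to 15.4% did.

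By class, the members that fell in wt with the block were 4 of H1, 7 of H2A, 7 of H2B, 4 of H3 and 5 of H4, and in N2ΔMy 3, 4, 3, 2 and 7. In fits of the first library series alone 12 members fell in wt (11.5% of all genes) and 7 in N2ΔMy (7.64%), and in fits of the second 11 (9.11%) and 16 (10.4%). Groups did not overlap, with Ly6Clo lower, for 11 members in wt, where 17.1% of all genes tested did so, and for 7 in N2ΔMy, where 13.0% did. These include Hist1h4f in both genotypes and Hist1h4j in N2ΔMy. Both genes reached the minimum in Ly6Chi IMQ libraries only, which favours a fall, and all counts of this paragraph keep such members.

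Among the H1 subtypes the wt difference ran from that of Hist1h1b, the lowest, to that of Hist1h1c, the highest. Hist1h1b, for H1.5 (ENSMUSG00000058773.2, chr13:21779883-21780625, minus strand), had 193, 176, 308 and 481 counts in wt Ly6Chi and 24, 40, 62 and 60 in wt Ly6Clo cells, far apart and without overlap. It fell by 2.59 on the log2 scale (SE 0.37, limma adjusted p = 0.0003333), which is a level 0.1666 times that of Ly6Chi, and each same-numbered pair of libraries had a ratio between 0.1244 and 0.2273. In N2ΔMy it had 174, 230, 414 and 540 in Ly6Chi and 59, 53, 149 and 181 in Ly6Clo cells, which overlapped, and it fell by 1.67 (SE 0.45, limma adjusted p = 0.0201) with pair ratios of 0.2304 to 0.3599. Both library series gave this direction, at -2.53 and -2.64 in wt and -1.82 and -1.52 in N2ΔMy.

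Hist1h1c, for H1.2 (ENSMUSG00000036181.2, chr13:23738808-23740367, plus strand), had 3927, 3757, 4075 and 5078 counts in wt Ly6Chi and 4940, 4384, 4347 and 4697 in wt Ly6Clo cells. These overlapped, with a log2 difference of 0.13 (SE 0.11, limma adjusted p = 0.364). In N2ΔMy it had 3547, 2961, 4394 and 5481 against 3520, 3044, 3368 and 4315, a difference of -0.17 (SE 0.18).

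Hist1h1d had 1301, 1201, 1674 and 2349 counts in wt Ly6Chi and 561, 472, 837 and 1094 in wt Ly6Clo cells, which did not overlap, and fell by 1.16 (SE 0.27, limma adjusted p = 0.006611). Its N2ΔMy values were 1097, 1231, 1965 and 2522 against 764, 630, 1158 and 1350, with a difference of -0.79 at an SE of 0.29 without and 0.09 with the block (limma adjusted p = 0.07301 and 0.0001166). Hist1h1e shows the same effect of the block most plainly. It had 1747, 1620, 5208 and 6266 counts in wt Ly6Chi and 935, 908, 3012 and 3266 in wt Ly6Clo, so that libraries of the first series were low and those of the second high in both subsets and the groups overlapped.

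Within same-numbered pairs the Ly6Clo to Ly6Chi ratio of Hist1h1e was 0.5352, 0.5605, 0.5783 and 0.5212 in wt and 0.6147, 0.6813, 0.5533 and 0.5763 in N2ΔMy. The log2 difference was -0.87 in wt, with an SE of 0.54 without and 0.07 with the block (limma adjusted p = 0.2468 and 1.295e-07), and -0.73 in N2ΔMy, with an SE of 0.64 and 0.08 (0.4473 and 7.886e-05). It was thus lower in Ly6Clo cells in 8 of 8 pairs, and was called with the block and in each library series on its own, but not without the block.

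**Figure D3:**
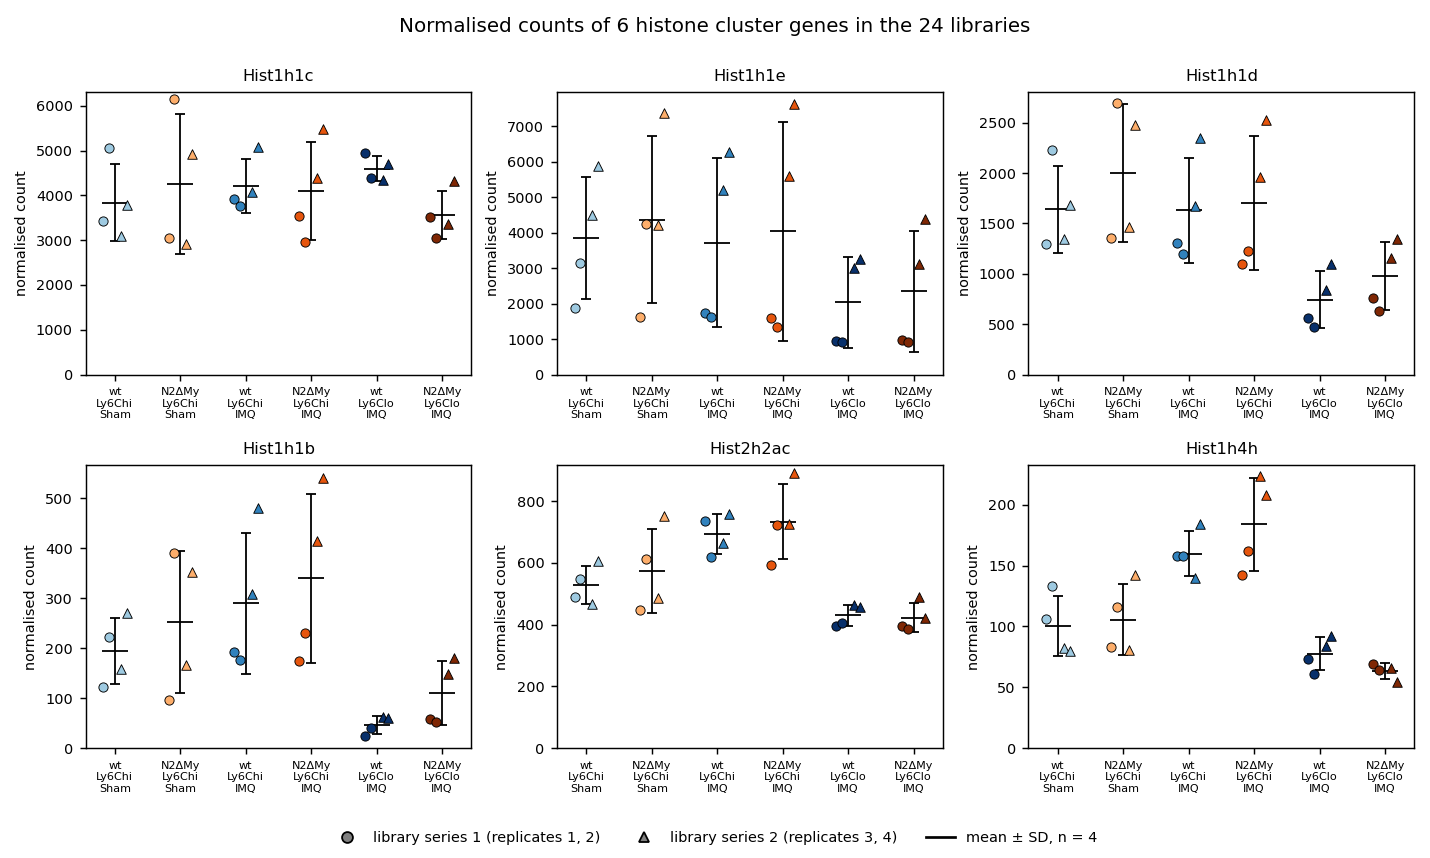
Normalised counts (y axes, from 0) of the H1 genes Hist1h1c, Hist1h1e, Hist1h1d and Hist1h1b, the H2A gene Hist2h2ac and the H4 gene Hist1h4h in each library by group (x axis), with circles for the first and triangles for the second library series and bars for mean ± SD of 4 libraries. Hist1h1b averages 289.5 in wt Ly6Chi and 46.5 in wt Ly6Clo cells after IMQ, Hist1h1c 4209.2 and 4592.0, and Hist1h1e has a higher mean in the second than in the first library series in every group.

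Of the H2A genes, Hist2h2ac (ENSMUSG00000068855.3, chr3:96220361-96220880, minus strand) had 736, 618, 663 and 759 counts in wt Ly6Chi against 397, 404, 462 and 458 in wt Ly6Clo cells, and 593, 724, 725 and 890 against 396, 385, 488 and 420 in N2ΔMy. The subsets did not overlap in either genotype. It fell by 0.69 in wt (SE 0.11, limma adjusted p = 0.0006864) and by 0.79 in N2ΔMy (SE 0.14, limma adjusted p = 0.001989). Its neighbour Hist2h2ab, counted at 31, 45, 27 and 27 in wt Ly6Chi and 12, 13, 5 and 11 in wt Ly6Clo cells, fell by 1.62 in wt (SE 0.43, limma adjusted p = 0.01265), and 62.4% of its windows occur in other genes. Hist1h2ak and Hist3h2a also fell in wt, and none of these 3 passed in N2ΔMy without the block, although Hist1h2ak did in each library series on its own.

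Of the H2B genes, Hist1h2bn had 99, 54, 53 and 77 counts in wt Ly6Chi and 23, 28, 3 and 25 in wt Ly6Clo, and 75, 74, 52 and 97 against 27, 33, 42 and 45 in N2ΔMy. The subsets did not overlap, and it fell by 2.08 in wt (SE 0.59, limma adjusted p = 0.01875) and by 0.99 in N2ΔMy (SE 0.29, limma adjusted p = 0.02671). As 72.3% of its windows occur in other genes, its reads could belong to other H2B copies. Hist1h2bg had 163, 170, 230 and 292 in wt Ly6Chi and 115, 108, 120 and 140 in wt Ly6Clo cells and fell by 0.78 in wt (SE 0.21, limma adjusted p = 0.01283). Hist2h2bb also fell in wt, but all of its windows are shared with other genes.

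Hist1h2bc, which rose with IMQ, had 204, 181, 219 and 392 in wt Ly6Chi and 127, 198, 256 and 263 in wt Ly6Clo cells. Its subset difference of -0.23 (SE 0.28) in wt and -0.11 (SE 0.30) in N2ΔMy did not pass with or without the block.

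The H4 gene Hist1h4h (ENSMUSG00000060981.7, chr13:23531050-23531519, plus strand) had 158, 158, 140 and 184 counts in wt Ly6Chi and 73, 61, 84 and 92 in wt Ly6Clo cells, and 142, 162, 224 and 208 against 69, 64, 66 and 54 in N2ΔMy. No library of one subset reached the other. It fell by 1.05 in wt (SE 0.19, limma adjusted p = 0.001513) and by 1.51 in N2ΔMy (SE 0.21, limma adjusted p = 0.0003345). Hist1h4f had 60, 50, 29 and 73 in wt Ly6Chi and 20, 17, 13 and 19 in wt Ly6Clo, with 38, 38, 106 and 49 against 17, 9, 12 and 31 in N2ΔMy, and again no overlap. It fell by 1.51 in wt (SE 0.36, limma adjusted p = 0.007336) and by 1.69 in N2ΔMy (SE 0.47, limma adjusted p = 0.02252), but it reached the minimum for testing in Ly6Chi IMQ libraries only, which favours this direction.

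Hist4h4, the single gene on chromosome 6, fell by 1.17 in wt (SE 0.36, limma adjusted p = 0.02768) and by 1.07 in N2ΔMy (SE 0.33, limma adjusted p = 0.03525), from 141, 174, 105 and 126 to 111, 69, 28 and 56 counts in wt. The libraries overlapped. Hist1h4k fell in wt. Hist1h4d, the H4 gene with the highest counts, had 774, 691, 793 and 806 in N2ΔMy Ly6Chi and 620, 600, 387 and 448 in N2ΔMy Ly6Clo cells, without overlap, and fell by 0.60 (SE 0.16, limma adjusted p = 0.01671). In wt it had 791, 706, 551 and 694 against 751, 593, 325 and 522, which overlapped (-0.37, SE 0.22).

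No H3 gene passed in either genotype without the block, but Hist1h3b passed in the first library series on its own in wt and Hist1h3d in the second in both genotypes. Hist1h3e, the H3 gene with the highest counts, had 167, 151, 140 and 160 in wt Ly6Chi and 132, 71, 68 and 136 in wt Ly6Clo cells, which did not overlap. The log2 difference was -0.67 (SE 0.25, limma adjusted p = 0.06251, with the block 0.01304) in wt and -0.52 (SE 0.28) in N2ΔMy. Hist1h3b had 49, 65, 1 and 3 in wt Ly6Chi and 8, 0, 0 and 0 in wt Ly6Clo, so that its difference of -2.88 (SE 1.32) again rested on the first library series.

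The third comparison asked whether N2ΔMy cells differed from wt cells of the same subset and treatment. No member passed limma's test in Ly6Clo cells after IMQ, where 4.78% of all genes tested did, in Ly6Chi cells after IMQ, where 0.0267% did, or in Ly6Chi cells after Sham, where 0.0178% did. At an unadjusted p under 0.05 there were 2 members in Ly6Clo IMQ (Hist1h1b and Hist1h1c), 0 in Ly6Chi IMQ and 0 in Ly6Chi Sham. The median log2 difference of the 42 members was 0.12, between -1.07 (Hist1h4j) and 1.70 (Hist1h3b), in Ly6Clo IMQ with a median SE of 0.46. In Ly6Chi IMQ members lay between -0.40 (Hist1h3b) and 0.52 (Hist1h4b), and in Ly6Chi Sham between -0.71 (Hist1h4j) and 1.08 (Hist2h2bb), with 35 of 42 above 0 and a median of 0.34. The core sums of N2ΔMy against wt Sham were 3180 against 3205, 4500 against 4095, 2859 against 2442 and 4844 against 2988 by replicate number. They were furthest apart in replicate 4, and members counted in the same libraries are not independent of each other.

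Hist1h1b in Ly6Clo IMQ cells had 24, 40, 62 and 60 counts in wt and 59, 53, 149 and 181 in N2ΔMy, which overlapped. The log2 difference of 1.12 had an SE of 0.46 and a limma adjusted p of 0.2054 without the block and an SE of 0.27 and an adjusted p of 0.01495 with it, where 8.36% of all genes were called. The N2ΔMy library was higher in 4 of 4 pairs, by ratios of 1.325 to 3.017, and it was the only member called with the block. Hist1h1c went the other way, with 4940, 4384, 4347 and 4697 in wt and 3520, 3044, 3368 and 4315 in N2ΔMy Ly6Clo cells. These did not overlap (exact permutation p = 0.0286, the smallest the 70 splits allow), and the difference of -0.38 (SE 0.11) had a limma adjusted p of 0.08078 without and 0.007016 with the block, but was under the size required.

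Whether the effects themselves differed between genotypes was tested as an interaction. No member passed for genotype by subset under IMQ, where 1.03% of all genes did, or for genotype by treatment in Ly6Chi cells, where 0.0% did (limma, 0 members at an unadjusted p under 0.05 in each, and 4 and 1 with the block, of which 0 and 0 passed where 2.41% and 0.0% of all genes did). The median SE of these terms over the 42 members was 0.65 and 0.62 on the log2 scale. Over all 6 groups 7 members differed (Hist1h2bc, Hist1h1d, Hist1h1b, Hist1h4h, Hist2h2ac, Hist1h4f and Hist1h2bn) at an adjusted p of at most 0.01 in limma's F-test, where 43.0% of all genes did, and 23 with the block, where 57.1% did.

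Members were also divided by how their gene models end, since transcripts that stop at the stem-loop and longer ones are counted on different stretches. The 22 members whose model ends less than 100 bases past the element, 11 of them tested, summed to 842, 973, 770 and 948 counts in wt Ly6Chi Sham, 1413, 1221, 1292 and 1523 in wt Ly6Chi IMQ and 725, 677, 740 and 884 in wt Ly6Clo IMQ. Ly6Chi IMQ libraries lay above both other wt groups without overlap. In N2ΔMy the sums were 763, 1119, 843 and 1407 after Sham, 1076, 1447, 1596 and 1750 in Ly6Chi IMQ and 727, 731, 767 and 848 in Ly6Clo IMQ, so that Sham and IMQ overlapped and the subsets did not. For the 18 members with a model of at least 300 bases past it, 16 of them tested and the abundant H1 genes among them, the sums were 8262 to 12688, 8701 to 16004 and 7322 to 10534 in wt and 7725 to 17002, 7496 to 18263 and 6202 to 11463 in N2ΔMy, which overlapped. The median log2 difference between wt Ly6Clo and Ly6Chi was -1.09 over the tested short models and -0.84 over the long ones, and that between IMQ and Sham 0.95 and 0.59, with -0.79 and -0.66 and 0.50 and 0.14 in N2ΔMy. Of the members that reached the minimum for testing in Ly6Chi IMQ libraries only, 3 are among the short and 3 among the long models, and without them the medians were -1.03 and -0.87 between the subsets and 0.62 and 0.39 between treatments in wt, and -0.72 and -0.60 and 0.46 and 0.13 in N2ΔMy. Whether short and long models differed was not tested.

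Genes of the cell cycle were counted beside the histone genes, as cells in S phase are the textbook source of these transcripts. Of the 37 listed genes of DNA replication 32 were tested. With IMQ 10 rose in wt and 8 in N2ΔMy Ly6Chi cells, where 4.43% and 4.15% of all genes did, and none fell. Between Ly6Clo and Ly6Chi cells 5 rose and 5 fell in wt, where 11.9% of all genes rose and 12.7% fell, and 4 rose and 1 fell in N2ΔMy, where 9.01% rose and 8.38% fell. The summed counts of the list were 2945 to 3169 in wt Ly6Chi Sham, 4059 to 4669 in wt Ly6Chi IMQ and 4640 to 5234 in wt Ly6Clo cells, so they were not lower in Ly6Clo cells as the core histone sums were. Single genes went separate ways: Lig1, a DNA ligase, averaged 56.5 ± 10.1, 163.5 ± 19.6 and 296.0 ± 51.1 in these groups and rose in both comparisons. Ccna2, for cyclin A2, averaged 1.25 ± 2.5, 64.0 ± 35.3 and 3.25 ± 4.57, rose with IMQ (log2 difference 5.15, SE 0.74) and was lower in Ly6Clo (-4.29, SE 0.79), both called. At these wt means only Ly6Chi IMQ libraries could reach the minimum for testing, which favours both directions.

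Of the 32 listed genes of mitosis 22 were tested. With IMQ 15 rose in wt and 14 in N2ΔMy Ly6Chi cells, where 4.43% and 4.15% of all genes did. In Ly6Clo against Ly6Chi cells 16 and 11 fell, where 12.7% and 8.38% of all genes did. There 2 and 1 rose, where 11.9% and 9.01% did. Genes that reached the minimum for testing in Ly6Chi IMQ libraries only would favour a rise with IMQ and a fall in Ly6Clo cells, and they were not counted apart. Mki67, a marker of dividing cells, averaged 267.0 ± 101.2 in wt Ly6Chi Sham, 1698.8 ± 495.7 in wt Ly6Chi IMQ and 138.2 ± 66.2 in wt Ly6Clo cells, and 234.8 ± 67.4, 1283.8 ± 294.6 and 345.8 ± 196.5 in N2ΔMy. It rose by 2.71 (SE 0.28, limma adjusted p = 0.0001884) in wt and 2.46 (SE 0.22, limma adjusted p = 0.0001424) in N2ΔMy with IMQ. It fell by 3.69 in wt (SE 0.32, limma adjusted p = 8.415e-06) and by 2.06 in N2ΔMy (SE 0.38, limma adjusted p = 0.002196) in Ly6Clo against Ly6Chi cells. The mitosis list thus moved in the direction of the core histone sums in both comparisons, and what part dividing cells had in the histone values was not tested.

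Genes of the machinery that makes and destroys histone mRNA were counted in the same way. Of 20 tested genes of 22 listed, Ccne1, for cyclin E1, which drives histone transcription through NPAT, rose with IMQ in wt (2.66, SE 0.56, limma adjusted p = 0.00883) and N2ΔMy (2.89, SE 0.64, limma adjusted p = 0.01363), from means of 7.50 and 8.00 to 43.5 and 49.8 counts. It was the only one called there, where 9.49% of all genes changed in wt and 8.7% in N2ΔMy. Between the subsets none was called, where 24.6% of all genes changed in wt and 17.4% in N2ΔMy. Between genotypes none was called either (4.78% of all genes in Ly6Clo IMQ, 0.0267% in Ly6Chi IMQ and 0.0178% in Ly6Chi Sham). Slbp, for the stem-loop binding protein, averaged 434.2 ± 52.1 in wt Ly6Chi Sham, 406.0 ± 6.83 in wt Ly6Chi IMQ and 523.2 ± 69.7 in wt Ly6Clo cells, and its log2 differences of -0.09 (SE 0.11) and 0.36 (SE 0.12) were not called. Npat averaged between 243.8 and 286.5 in the 6 groups.

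Genes of histone variants listed as replication-independent were tested for 9 of 11. The list is mixed, as the 3′ end of H2afx matched the stem-loop too and transcripts of Cenpa are known to vary through the cell cycle. H2afv rose in wt with IMQ (0.72, SE 0.19, limma adjusted p = 0.02707) and none was called in N2ΔMy. Between the subsets H2afz, for H2A.Z, was lower in Ly6Clo cells of both genotypes, at 538.2 ± 146.4 against 1218.2 ± 281.5 in wt (-1.19, SE 0.21, limma adjusted p = 0.001168) and 633.5 ± 116.9 against 1350.5 ± 230.9 in N2ΔMy (-1.09, SE 0.16, limma adjusted p = 0.000618). H1f0, for the linker histone of resting cells, and Cenpa, for the centromeric H3, were each lower by 1.09 on the log2 scale in wt Ly6Clo cells and were not called in N2ΔMy. H3f3a and H3f3b, for H3.3, were not called in any comparison of all 4 replicates with or without the block, but H3f3b was called lower with IMQ in the first library series alone (-0.65 in wt and -0.90 in N2ΔMy), with -0.33 and -0.22 in the second. Of 19 tested histone chaperone and supply genes of 21 listed, Chaf1a rose and Daxx fell with IMQ in wt, Daxx fell in N2ΔMy, and between the subsets Nap1l1 and Rbbp7 rose and Ipo4 fell in wt and Ipo4 fell in N2ΔMy. Beside the calls in both lists, 9.49% of all genes changed with IMQ in wt and 8.7% in N2ΔMy. Between the subsets 24.6% changed in wt and 17.4% in N2ΔMy.

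Single members differed between the library series by as much as between treatments or subsets. The mean of Hist1h1e was higher in the second series in all 6 groups, by ratios of 1.975 to 4.503, with overlap in N2ΔMy Ly6Chi Sham alone (1615 and 4243 against 4202 and 7369). Hist1h2ae, Hist1h2ab and Hist1h4n had mean log2 differences between series of 2.46, 2.32 and 2.22, whereas Hist1h3d (-1.90), Hist1h3f (-1.78), Hist1h4b (-1.40), Hist1h2be (-1.12) and Hist1h3b (-2.14) were lower in the second series in all groups. In all 6 groups 9 members of 42 were higher (21.43%, against 16.27% of all genes tested) and 7 lower (16.67% against 16.28%). Hist1h1e and Hist1h2be lie on the same strand and 25.7% of the Hist1h1e model overlaps that of Hist1h2be, and they differed between the series in opposite directions. What differed between the series is not given in the labels, and its part in these values was not tested.

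**Figure D4:**
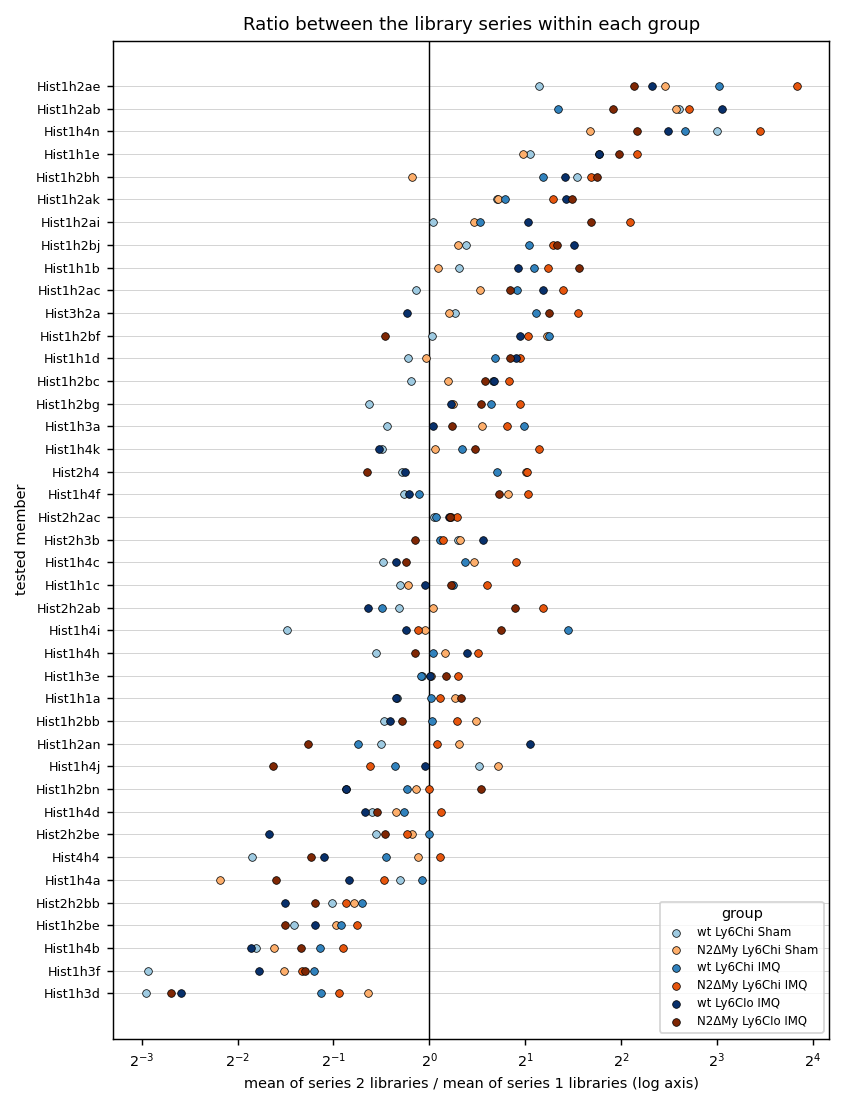
Ratio of the mean of the second to the mean of the first library series (x axis, log scale) within each of the 6 groups (coloured points) for 41 tested members (y axis). Hist1h3b is left out because its ratio was 0 in some groups, where both libraries of the second series were at 0. Points of Hist1h1e lie between 1.975 and 4.503 in all groups, and those of Hist1h1c between 0.8112 and 1.517.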

How the data were processed

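RNA was sequenced from 24 sorted monocyte samples (SMARTer Stranded total RNA kit, 11 PCR cycles, single reads of 75 bases), with samples grouped by the genotype, subset, treatment and replicate in their labels. The authors trimmed reads with Trim Galore 0.4.4, aligned them with STAR 2.5.3a to GRCm38.p6 with GENCODE genes and normalised the counts with DESeq2. Their counting tool and strand setting are not given in the sources used here, so antisense overlaps cannot be told apart. The deposited table holds, per gene and library, a score that is the authors' DESeq2-normalised count rounded to a whole number, and other columns with gene length and position. Its columns on the authors' own comparisons (base mean, log2 fold change, standard error, Wald statistic, p-value and adjusted p) were not used. As the values are scaled, count models were not used, in place of which limma 3.58.1 (R 4.3.3, lmFit, eBayes with trend) was run on log2(value + 1).

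Of 53715 genes, 25137 were at 0 everywhere, and the 11230 that reached 50 in any 1 library were tested. Fold changes are on the log2(value + 1) scale, which understates changes of low genes. The call required an adjusted p (Benjamini-Hochberg, over all genes tested) no higher than 0.05 with a log2 difference of 0.6 or more in either direction, or 0.01 for the F-test over 6 groups. Two-group fits used the 8 libraries compared and interactions 16. Single members also had two-sided exact permutation tests over 70 splits, with a smallest p of 0.0286. Precision is given as the SD or SE over 4 libraries, since intervals on counts need unscaled reads. The 4 libraries of a group are biological replicates by the series' design.

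Same-numbered libraries deviated together from their group means in all 28 pairs tested (r across genes 0.16 to 0.619). Fits with the number as a block are therefore given where they change a call. Libraries with different numbers of the same library series were not compared, so these correlations cannot tell a shared replicate number from a shared library series. No 2 libraries had more than 1.567% of tested genes at the same value. The rule for values in every library took the 3 tested members with the highest mean per class. It added up to 6 called members with the smallest adjusted p per comparison. Not every group is printed for each of these members, and Hist1h2ac, Hist1h3d and Hist1h3f are not printed library by library. Hist1h3b, Hist4h4 and Hist3h2a were named after their values were seen. Members and gene lists were chosen with earlier results of these data known. Sequences came from GENCODE transcripts of GRCm38 of a release other than the authors' and from RefSeq promoter windows. Positions of genes were taken from the deposited table.

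Alternatives were quantile normalisation, other filters and pseudocounts, no trend, the block, the library series as a covariate or alone, all 24 libraries in one fit, and leaving out each replicate. Counts over members sharing under 50% of windows, and over members that reached 50 outside Ly6Chi IMQ libraries, were added after the data were seen. In simulated data for N2ΔMy against wt Ly6Clo IMQ, 199 of 200 genes changed by 2 on the log2 scale were recovered among 11230, with 6 false calls. Recovery of changes smaller than 2 was not tested. The log2 differences of the 42 members between N2ΔMy and wt Ly6Clo IMQ cells lay between -1.07 and 1.70, with a median SE of 0.46. Tables and figures used Python 3.11.15, numpy 2.4.6, pandas 2.3.3 and matplotlib 3.10.9.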

Additional observations from a re-analysis of the deposited data

Results flagged for a closer look

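Sets of 4 libraries were examined for single members and for the sums of all members, of H1 members and of core histone members. Of these 144 sets, 4 held a library far from the other 3 by Dixon's test, which chance alone gives for about 1 set in 20. All 4 were sets of single members. The H2A gene Hist1h2ak was at 301 in N2ΔMy Ly6Chi Sham replicate 4, with 123 to 135 in the others. The H3 gene Hist1h3f was at 64 in N2ΔMy Ly6Clo IMQ replicate 1, with 14 to 22 in the others. Among H4 genes, Hist1h4c was at 128 in wt Ly6Clo IMQ replicate 3 against 231 to 251, and Hist1h4f was at 106 in N2ΔMy Ly6Chi IMQ replicate 3 against 38 to 49.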

How the results depend on the processing

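With IMQ against Sham in wt Ly6Chi cells, 4 members called became 18 with the replicate block, 15 with the library series as a covariate (5.83% of all genes higher), 2 within the first series and 1 to 3 when 1 replicate was left out (2, 1 and 1 without replicate 1, 3 or 4). In N2ΔMy Ly6Chi cells, 2 became 1 without a filter (2.4% of all genes changed, against 8.7% with it), 1 without the trend (8.74%), 6 with the block, 8 with the covariate (5.16% higher), 1 within the first series and 0 in every fit that left out 1 replicate. For Ly6Clo against Ly6Chi, 13 in wt became 8 without a filter (8.91% of all genes, against 24.6%), 27 with the block, 27 with the covariate (14.5% lower) and 7 to 11 when 1 replicate was left out (7 and 8 without replicate 2 or 3). The 7 in N2ΔMy became 2 without a filter (5.29% against 17.4%), 19 with the block, 20 with the covariate (10.5% lower), 16 within the second series and 3 to 6 (3 and 4 without replicate 2 or 3). Between genotypes in Ly6Clo IMQ, 0 became 1 with the block and 1 with the covariate (7.39% of all genes). The F-test count of 7 became 23 with the block, 20 with the covariate (54.7% of all genes) and 4 to 7 (4 without replicate 1 or 2, with 30.9% to 35.4% of all genes in such fits against 43.0%). The remaining 128 counts stayed within 1.5 times. For 21 calls, those of members chosen by the rule for values in every library, 313 log2 fold changes were recomputed, of which 245 stayed called, 68 no longer passed and 0 changed sign. The cause was not tested, apart from fewer libraries when replicates were left out and a heavier adjustment over more genes without the filter. Among the 28 tested members with under 50% of windows shared, 4, 2, 9 and 6 were called in the 4 comparisons of treatment and subset, where 4.43%, 4.15%, 12.7% and 8.38% of all genes were called in the same direction. Without the 6 members that reached the minimum in Ly6Chi IMQ libraries only, 4, 1, 12 and 6 were called in the same comparisons. At this depth the 27 members under the minimum were not tested, and which copy a read belongs to is uncertain where sequence is shared.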
